A study of Mus musculus with 6 samples.

Results

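The genes described here are 39 interferon-induced antiviral genes, chosen by symbol: the OAS family, the Mx pair, sensors of viral RNA and DNA, Trim and Parp proteins, and other effectors. Guanylate-binding proteins, immunity-related GTPases and the Ifit, Irf, Stat and Ifi200 genes were not among them. The members and the gene lists used below were chosen with earlier results of these data known. Of the 39, 37 had a row in the table of 19390 gene symbols, and 36 had enough counts to be tested among 12810 genes. Mx1 and Mx2 had no row under these symbols and were not analysed here, and Oas1g, with 0 to 2 counts per library, was below the count filter. The data are RNA sequencing of γδ T cells, which carry the less common form of the T cell receptor, sorted from the spleens of 6-week-old mice. The 3 WT-labelled libraries were taken as Usf3 f/f, with floxed alleles of Usf3, a gene of the basic helix-loop-helix leucine zipper family. The 3 KO-labelled libraries were taken as Usf3 f/f with CD2-cre, in which the CD2 promoter drives Cre in lymphocytes. Both groups therefore carry the floxed alleles, only the KO-labelled one carries the transgene, and the effect of the transgene and that of the deletion cannot be told apart here. The labels name no strain, sex or infection, and do not say whether the 3 libraries of a group came from separate mice.

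Interferons act through receptors that activate the JAK1, TYK2 and JAK2 kinases, which phosphorylate STAT proteins. Complexes of STAT proteins with IRF9 bind the interferon-stimulated response element, or ISRE, in the promoters of target genes, while STAT dimers formed after interferon-γ bind the GAS element. The products of the genes described here sense viral nucleic acid, degrade or edit RNA, deplete nucleotides, hold budding virus at the membrane or tag proteins with ubiquitin or ADP-ribose. Many are also transcribed at a low level in cells that are not infected.

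Library totals ran from 34644862 to 35806402 counts, and the members together took 0.303% to 0.307% of the counts in WT-labelled libraries and 0.229% to 0.232% in KO-labelled ones. Usf3 itself had a WT level of 72.2 ± 1.81 CPM (counts scaled to a common library size) and a KO level of 68.5 ± 3.18 (SD, n = 3 in both), and the groups overlapped. Its log2 fold change of -0.076 ± 0.043 (SE) did not pass the test (edgeR adjusted p = 0.261), and the p of a two-sided exact permutation test was 0.2 (smallest possible with 3 against 3, 0.1). The floxed exons are not named in the labels, so this whole-gene count is no check of the deletion. T cell markers were abundant, with Cd3e at 346 and Cd3g at 382 CPM in WT. Their summed level over 4 genes was 1172 to 1189 CPM in WT and 1073 to 1131 in KO, and Cd3d, Cd3e and Cd3g were called lower (log2 fold changes -0.12, -0.076 and -0.17) while Cd247 did not pass. The constant-chain genes of the γδ receptor were not analysed here.

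Nearly all of these antiviral genes were lower in KO-labelled cells. Of 36 tested members, 33 were lower and 0 were higher at an adjusted p under 0.05 (edgeR quasi-likelihood test, adjusted over all 12810 genes). Across all tested genes the same test called 10.1% lower and 7.23% higher. At an unadjusted p under 0.05, 34 members were lower and 0 higher, beside 15.2% lower and 13.2% higher of all tested genes. DESeq2 also called 33 members lower and 0 higher. The median log2 fold change was -0.45 over the 36 members, with quartiles of -0.67 and -0.34, beside 0.0014 over all tested genes. A fall of at least 1.5-fold was called in 14 members (1.74% of all tested genes), and of at least 2-fold in 5 (0.625%): Rsad2, Ifi44, Oasl1, Oas2 and Cmpk2. The other 19 of the 33 fell by less than 1.5-fold. The 3 KO-labelled libraries lay wholly below the 3 WT-labelled ones in 34 members, an order seen in 16.7% of all tested genes. In a bulk sample, fewer cells that express a gene and less RNA per cell cannot be told apart.

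The members' median was below 0 in each KO-labelled library. Relative to the WT mean, the median member was at -0.51 in KO replicate 1, -0.40 in KO replicate 2 and -0.48 in KO replicate 3 on the log2 scale, and the WT-labelled libraries lay between -0.0020 and 0.020. Summed over the 37 members with a row, the level was 3073, 3063 and 3050 CPM in WT replicates 1, 2 and 3 and 2279, 2309 and 2309 CPM in KO replicates 1, 2 and 3. Over all genes the KO-labelled libraries differed from one another by a chi-square per degree of freedom of 3.60 to 7.19, highest for replicates 2 and 3, and the WT-labelled ones by 3.26 to 3.30. Of the 36 tested members, 35, 34 and 35 lay below every WT-labelled library in KO replicates 1, 2 and 3. The share of all tested genes that do so was not computed for single libraries.

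**Figure D1:**
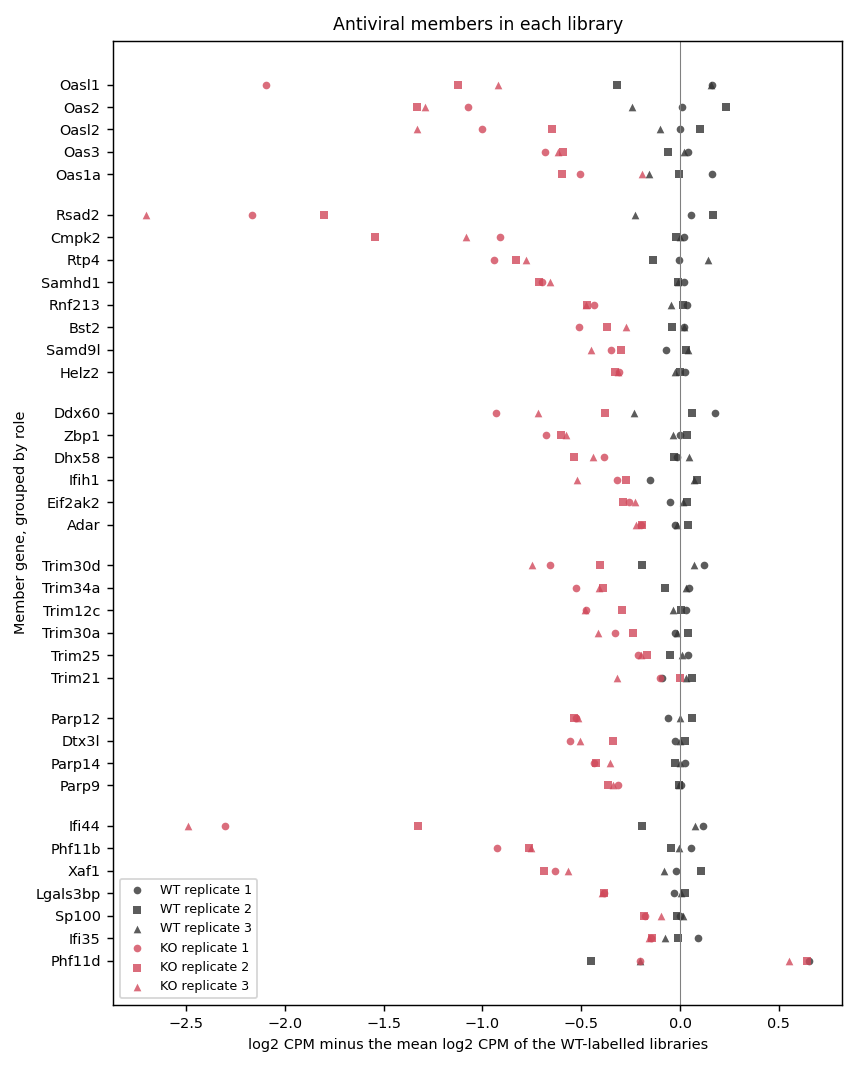
Each row is a tested member, grouped by role, and each point a library: the x axis is its log2 CPM minus the mean log2 CPM of the 3 WT-labelled libraries (black), with KO-labelled libraries in red and replicates 1, 2 and 3 as circles, squares and triangles. The red points lie left of all black points in 34 of 36 genes, and spread most for Rsad2, Ifi44 and Oasl1, which have few counts.

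The members span a wide range of levels. Per length, the most abundant in WT was Samhd1, the phosphohydrolase that depletes the nucleotides needed for reverse transcription, at 112 ± 1.66 FPKM (fragments per kilobase and library size, SD, n = 3). Bst2, whose product tetherin holds budding virus at the cell surface, followed at 103 ± 2.64 FPKM, Lgals3bp, a secreted glycoprotein gene, at 89.6 ± 1.66 and Sp100, a nuclear body component gene, at 64.7 ± 0.590. Zbp1, Parp9 and Ifi35 came next at 46.3 ± 1.16, 41.3 ± 0.290 and 40.2 ± 2.45 FPKM, and Parp9 and Ifi35 did not differ beyond their spread. At the low end, Rsad2, Oasl1 and Ifi44 stood at 0.644 ± 0.089, 0.704 ± 0.128 and 0.727 ± 0.082 FPKM and overlapped in spread, Ddx60 and Oas2 at 0.470 ± 0.068 and 0.399 ± 0.065, and Phf11d at 0.077 ± 0.033. In KO the order at the top changed: Bst2 stood at 79.7 ± 6.51 FPKM, and Samhd1 at 70.0 ± 1.46 and Lgals3bp at 68.9 ± 0.219 did not differ beyond their spread.

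The 5 largest falls were in genes of low level. Over the 36 members, WT level and log2 fold change had a Pearson r of 0.42 and a Spearman rho of 0.44, given as a description across genes of the same libraries. Over all 12810 tested genes rho was 0.0065. The 5 members that fell at least 2-fold stood between 0.399 FPKM for Oas2 and 4.43 FPKM for Cmpk2 in WT. High level did not go with a small fall throughout, since Samhd1 changed by -0.69 and Sp100 by -0.15.

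**Figure D2:**
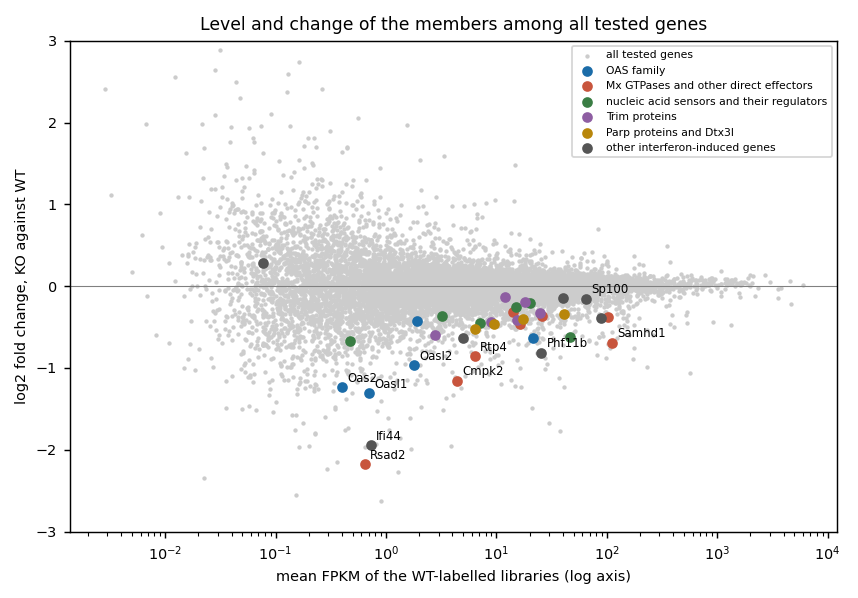
The x axis is the mean FPKM of the 3 WT-labelled libraries (log axis) and the y axis the log2 fold change of KO against WT, with all tested genes in grey and the members coloured by role; 4 genes beyond 3 on the y axis are not drawn. All members but Phf11d lie below 0, with Rsad2 and Ifi44 near -2 at under 1 FPKM and Samhd1 at -0.69 at 112 FPKM.

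The OAS family makes 2′-5′ oligoadenylate, a messenger of the antiviral response, on binding double-stranded RNA, and the OAS-like genes Oasl1 and Oasl2 belong to the same family. Oas3 was by far the most abundant of them, at 108, 101 and 107 CPM in WT replicates 1, 2 and 3 and 65.6, 70.0 and 68.7 CPM in KO replicates 1, 2 and 3. All KO values lay below all WT values, and the log2 fold change was -0.63 ± 0.041 (SE; edgeR adjusted p = 5.73e-11). Oas2 had 58, 66 and 48 counts in WT against 27, 23 and 23 in KO, a log2 fold change of -1.24 with a 95% interval from -1.89 to -0.58 (edgeR adjusted p = 0.00713). Oasl2 went from 201, 211 and 185 counts to 99, 129 and 78, a change of -0.97 ± 0.175 (edgeR adjusted p = 0.00029). Oasl1, which has been described as a brake on Irf7 translation, had 63, 44 and 62 counts in WT against 13, 26 and 29 in KO. Its log2 fold change was -1.31 with an interval from -2.03 to -0.59 (edgeR adjusted p = 0.0096). With so few counts the intervals of Oas2, Oasl1 and Oasl2 overlap one another, and no order among them can be read.

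Oas1a did not pass. It had 148, 129 and 117 counts in WT against 92, 88 and 113 in KO, a log2 fold change of -0.43 with an interval from -0.82 to -0.034 (edgeR adjusted p = 0.136), and its KO values lay just below the WT ones. Oas1g had 2, 1 and 0 counts in WT and 0 in each KO-labelled library, too few to compare. The 2 genes are near copies: 57.6% of the 50-base words in the longest Oas1a coding transcript also occur in Oas1g (GENCODE M21), so the division of reads between them is uncertain. The Oas2 call was lost without WT replicate 2 (log2 fold change -1.11, edgeR adjusted p = 0.0522). The Oasl1 call was lost on leaving out WT replicate 1, WT replicate 3 or KO replicate 1, in that order (-1.23, -1.23 and -1.03, edgeR adjusted p = 0.0552, 0.0551 and 0.0697).

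Rsad2, which encodes viperin, an enzyme that turns CTP into a chain-terminating nucleotide, fell most of all members. It had 90, 95 and 73 counts in WT against 19, 25 and 13 in KO, so that the highest KO value was far below the lowest WT value. The level fell by 77.9%, a log2 fold change of -2.18 with a 95% interval from -2.82 to -1.53 (edgeR adjusted p = 1.61e-05). Cmpk2, its neighbour on chromosome 12, encodes a mitochondrial nucleotide kinase whose product is used in the same reaction. It had 512, 486 and 499 counts in WT against 265, 174 and 233 in KO, a log2 fold change of -1.16 with an interval from -1.40 to -0.91 (edgeR adjusted p = 1.44e-07). The intervals of the 2 neighbours do not overlap. These 2 genes were chosen for full values after their sizes were seen, as was Ifi44, below.

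Among the other effectors, Samhd1 had the smallest p of all members. It stood at 538, 528 and 526 CPM in WT and 327, 323 and 336 CPM in KO, with a log2 fold change of -0.69 ± 0.024 (SE; edgeR adjusted p = 1.35e-15). The lowest WT value was far above the highest KO value. Rnf213, the gene of a giant ubiquitin ligase that coats intracellular pathogens, stood at 291, 287 and 276 CPM in WT and 210, 206 and 205 in KO (-0.46 ± 0.028, edgeR adjusted p = 2.67e-11). Helz2, a helicase and transcriptional co-activator gene, stood at 149, 146 and 144 CPM in WT and 118, 117 and 118 in KO (-0.32 ± 0.032, edgeR adjusted p = 9.43e-08). In each of these genes the groups were far apart relative to their spread. Rtp4, which encodes a chaperone of receptors that also restrains some RNA viruses, changed by -0.85, Bst2 by -0.38 and Samd9l, a translation-blocking antiviral factor gene, by -0.37. All 8 effectors with a row were called lower, beside 10.1% of all tested genes.

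The sensors and their regulators were lower in all 6 members, beside 10.1% of all tested genes, with a median log2 fold change of -0.41. Zbp1, the sensor of Z-form nucleic acid that starts necroptosis, stood at 101, 103 and 98.2 CPM in WT and 62.9, 66.3 and 67.2 in KO, a log2 fold change of -0.62 ± 0.040 (SE; edgeR adjusted p = 5.90e-11). Eif2ak2, the kinase PKR, which halts translation on binding double-stranded RNA, stood at 96.9, 103 and 102 CPM in WT and 83.8, 82.3 and 85.7 in KO (-0.26 ± 0.038, edgeR adjusted p = 2.40e-05). Adar, the RNA-editing enzyme that keeps the cell's own double-stranded RNA from these sensors, stood at 127, 132 and 128 CPM in WT and 112, 113 and 110 in KO (-0.21 ± 0.034, edgeR adjusted p = 8.84e-05). The KO values were the lower ones throughout in all 3, with the widest gap in Zbp1. The intervals of Zbp1 and of Adar, from -0.70 to -0.54 and from -0.28 to -0.14, do not overlap.

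Of the RNA helicases of the RIG-I family, both members were lower. Dhx58 (LGP2), which helps MDA5 bind RNA, changed by -0.45 ± 0.078 and Ifih1 (MDA5), the sensor of long double-stranded RNA, by -0.37 ± 0.086 (SE; edgeR adjusted p = 0.000161 and 0.00352). Rigi, the third helicase of that family, was no member and did not pass, with a WT level of 107 ± 4.76 CPM and a KO level of 101 ± 1.38 (SD, n = 3 in both; log2 fold change -0.087 with an interval from -0.17 to -0.0087, edgeR adjusted p = 0.127). Ddx60, a helicase gene of low level, had 133, 120 and 99 counts in WT against 61, 91 and 70 in KO, a change of -0.67 ± 0.214 (edgeR adjusted p = 0.0329). Its call was lost without WT replicate 1, WT replicate 2, KO replicate 1 or KO replicate 3, with log2 fold changes of -0.58, -0.64, -0.55 and -0.64 (edgeR adjusted p = 0.148, 0.106, 0.148 and 0.0603).

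Trim proteins are ubiquitin ligases, some of which bind viral capsids or modify sensors. Of 6 members, 5 were lower, beside 10.1% of all tested genes. Trim12c, of the mouse Trim5 group, stood at 59.7, 58.7 and 57.0 CPM in WT and 42.0, 47.7 and 41.9 in KO (log2 fold change -0.41 ± 0.052, SE; edgeR adjusted p = 2.33e-06). Trim30a, described as a brake on NF-κB signalling, stood at 99.8, 105 and 101 CPM in WT and 81.1, 86.3 and 76.2 in KO (-0.33 ± 0.043, edgeR adjusted p = 5.18e-06). Trim34a stood at 24.7, 22.7 and 24.5 CPM in WT and 16.6, 18.3 and 18 in KO (-0.44 ± 0.070, edgeR adjusted p = 5.84e-05). In all 3 the groups were apart, and KO replicate 2 was the highest KO-labelled library.

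Trim30d changed by -0.60 and Trim25, the ligase that acts with RIG-I, by -0.19. Trim21, the cytosolic receptor for antibody-coated virus, did not pass: it stood at 31.4, 34.8 and 34.2 CPM in WT and 31.2, 33.5 and 26.8 in KO, with overlapping groups (log2 fold change -0.13, interval from -0.28 to 0.011, edgeR adjusted p = 0.216). Without KO replicate 2 the Trim21 change was -0.21 and passed (edgeR adjusted p = 0.0419). Near copies make some of these values uncertain: 61.9% of the 50-base words of Trim34a and 33.4% of those of Trim12c occur in transcripts of other genes, chiefly Trim34b and Trim5. For Trim30a and Trim30d these shares were 6.53% and 8.29%.

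The Parp group was uniform. Parp9 and Dtx3l are neighbours on chromosome 16 and their products work as a complex that joins ADP-ribosylation and ubiquitylation, and Parp14 is next to Dtx3l there. Parp9 stood at 144, 143 and 143 CPM in WT and 115, 112 and 113 in KO (log2 fold change -0.34 ± 0.032, SE; edgeR adjusted p = 3.36e-08). Parp14, a mono-ADP-ribosyltransferase gene, stood at 151, 146 and 148 CPM in WT and 110, 110 and 116 in KO (-0.40 ± 0.034, edgeR adjusted p = 4.51e-09). Dtx3l stood at 48.9, 50.8 and 49.8 CPM in WT and 33.8, 39.3 and 35.1 in KO (-0.47 ± 0.055, edgeR adjusted p = 1.07e-06). The KO-labelled libraries were apart from the WT-labelled ones in each gene, and the intervals of the 3 changes overlap. Parp12, which binds viral RNA, changed by -0.53. Exons of Parp9 and Dtx3l overlap on opposite strands over 9.4% and 8% of their bases, and whether counting used strand is not stated. Overlap with other genes on the opposite strand was larger in Trim34a, at 23.5%, and in Adar and Ifi35, at 16.8% each.

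Of the other interferon-induced genes, 6 of 7 were lower, beside 10.1% of all tested genes. Lgals3bp stood at 202, 210 and 207 CPM in WT and 158, 158 and 157 in KO (log2 fold change -0.39 ± 0.029, SE; edgeR adjusted p = 6.70e-10). Phf11b, a gene of a PHD-finger family, stood at 40.4, 37.6 and 38.7 CPM in WT and 20.5, 22.9 and 23.1 in KO (-0.81 ± 0.061, edgeR adjusted p = 7.19e-10). Xaf1, whose product opposes the caspase inhibitor XIAP, stood at 29.8, 32.5 and 28.6 CPM in WT and 19.5, 18.8 and 20.4 in KO (-0.63 ± 0.067, edgeR adjusted p = 2.05e-07). The groups were well apart in all 3.

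Ifi44, a gene of low level, had 81, 64 and 78 counts in WT against 15, 30 and 13 in KO, a log2 fold change of -1.94 with an interval from -2.63 to -1.25 (edgeR adjusted p = 0.000164). KO replicate 2 was the highest of the KO-labelled libraries and still below the lowest WT count. Sp100 and Ifi35 moved least of the called members, at -0.15 each. The Ifi35 call (edgeR adjusted p = 0.0326) was lost without WT replicate 1, WT replicate 2 or KO replicate 1, with changes of -0.10, -0.15 and -0.15 (edgeR adjusted p = 0.224, 0.0775 and 0.0895). It was also lost in limma on log2(FPKM + 0.1) and log2(FPKM + 1), with adjusted p = 0.0554 and 0.0548. Phf11d had 11, 5 and 6 counts in WT against 6, 11 and 10 in KO, overlapping groups with a change of 0.29 and an interval from -0.90 to 1.48 (edgeR adjusted p = 0.795), so no change was detectable at this depth. Of the 50-base words of Phf11b, 47.0% occur in transcripts of other genes, chiefly Phf11a.

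**Figure D3:**
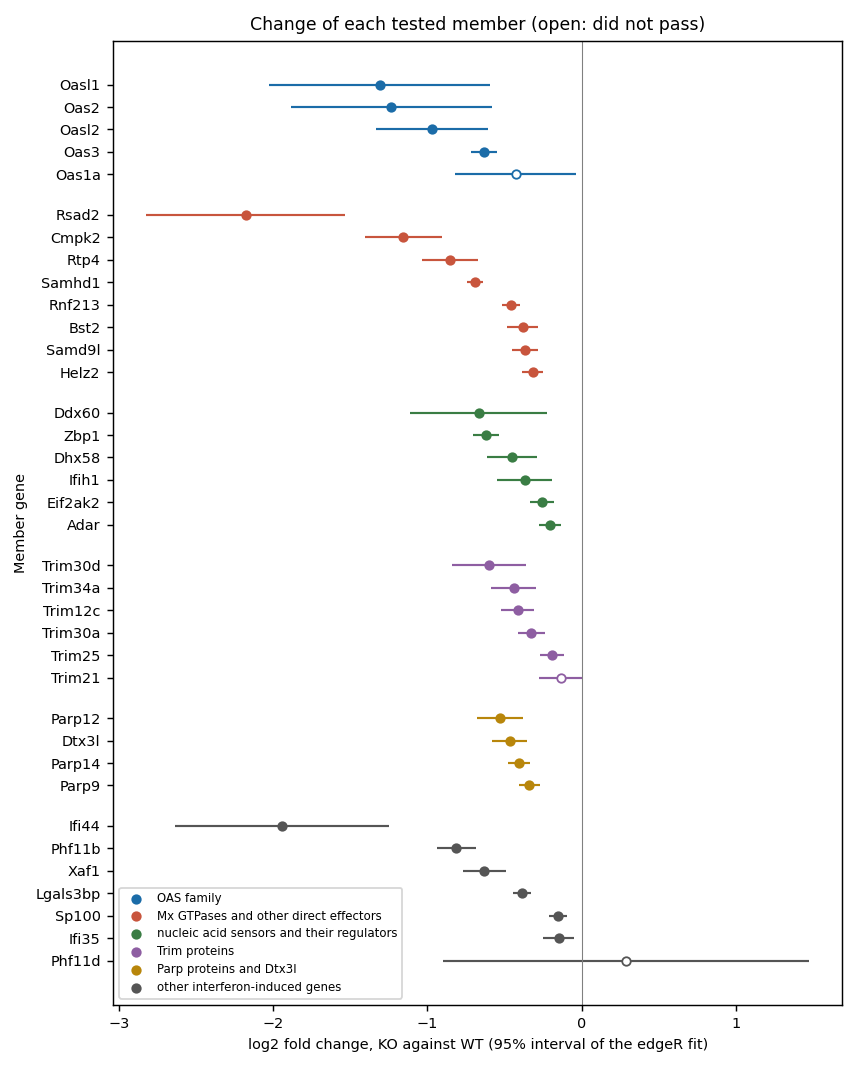
Points are the log2 fold changes of KO against WT for each tested member, grouped and coloured by role, with bars for the 95% interval of the edgeR fit; open points did not pass. The intervals are wide for Rsad2, Ifi44, Oas2, Oasl1 and Phf11d, and the 3 open points are Oas1a, Trim21 and Phf11d.

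Promoter sequences show how far the members share the letters of the ISRE, the element described above. RefSeq promoter windows on GRCm38.p6, from 250 bases before to 50 after each start site, were found for 31 of the 39 members, some of which have more than 1 window. Both strands were searched for the ISRE letters, GAAA, any 2 bases and GAAA again. A match occurred in 14 of these 31 members, of which Oas1g was not tested. Among tested genes with a window, it occurred in 13 of 30 members (43.3%), beside 379 of all 10079 (3.76%). The GAS letters TTCNNNGAA occurred in 6 of the 30 tested members (20%) and 8.28% of the tested genes, and in Bst2 a GAS match overlaps the ISRE match. The E-box letters CACGTG, the core bound by upstream stimulatory factors, occurred in 1 of the 30 tested members, Trim25 (3.33%), and in 11.4% of the tested genes. A match is only a description of these windows and no match says only that these letters are not there.

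Full windows are shown for 4 members that carry a match and were called lower: the member with the largest fall (Rsad2), the most abundant OAS gene (Oas3), a sensor helicase with separate matches (Ddx60) and the Phf11 gene with most counts (Phf11b). Letters read along the gene's own strand, and capitals mark the ISRE match, which in Rsad2 is read on the other strand. The match begins at position -120 from the start site in Rsad2, -75 in Oas3, -53 and -19 in Ddx60 and -50 in Phf11b.
Rsad2, chr12:26456403-26456702, minus strand: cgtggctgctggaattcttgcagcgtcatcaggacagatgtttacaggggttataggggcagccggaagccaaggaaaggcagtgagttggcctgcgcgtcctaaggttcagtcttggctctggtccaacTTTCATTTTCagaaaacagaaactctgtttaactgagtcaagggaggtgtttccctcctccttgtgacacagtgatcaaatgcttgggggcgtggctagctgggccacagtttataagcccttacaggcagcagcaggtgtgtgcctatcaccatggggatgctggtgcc
Oas3, chr5:120777610-120777909, minus strand: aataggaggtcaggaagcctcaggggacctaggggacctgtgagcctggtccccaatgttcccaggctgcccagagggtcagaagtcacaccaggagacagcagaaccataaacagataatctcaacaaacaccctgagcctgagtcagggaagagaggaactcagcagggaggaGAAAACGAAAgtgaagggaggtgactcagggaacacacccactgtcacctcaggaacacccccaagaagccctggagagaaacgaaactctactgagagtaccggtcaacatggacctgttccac
Ddx60, chr8:61927837-61928136, plus strand: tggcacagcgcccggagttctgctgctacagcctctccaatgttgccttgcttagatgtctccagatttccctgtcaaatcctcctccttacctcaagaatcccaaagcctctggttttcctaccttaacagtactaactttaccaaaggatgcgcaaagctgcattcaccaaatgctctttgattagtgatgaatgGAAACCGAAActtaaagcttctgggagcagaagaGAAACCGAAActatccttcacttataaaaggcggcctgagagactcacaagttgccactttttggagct
Phf11b, chr14:59341281-59341580, minus strand: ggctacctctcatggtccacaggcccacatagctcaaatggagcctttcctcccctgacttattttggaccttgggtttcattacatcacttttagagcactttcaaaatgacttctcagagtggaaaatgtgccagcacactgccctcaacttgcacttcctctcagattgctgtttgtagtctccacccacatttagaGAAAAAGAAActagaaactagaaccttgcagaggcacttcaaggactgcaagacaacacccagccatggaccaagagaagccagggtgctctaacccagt

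The matches of the other members, with 8 bases on each side where the window allows and capitals for the match, show copies within families. Each is printed in the direction in which it reads GAAA. Oas1a and Oas1g have the same letters throughout, and so do Trim30d and 1 of the 2 Trim30a windows.
Oas1a, chr5:120907522-120907553, minus strand: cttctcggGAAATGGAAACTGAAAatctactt
Oas1g, chr5:120887608-120887639, minus strand: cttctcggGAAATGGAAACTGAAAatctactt
Trim30a, chr7:104446106-104446131, plus strand: ggaactgaGAAAAAGAAActaaaaac
Trim30a, chr7:104465212-104465237, plus strand: ggaactgaGAAAAAGAAActaaagaa
Trim30d, chr7:104507873-104507898, plus strand: ggaactgaGAAAAAGAAActaaagaa
Trim12c, chr7:104353361-104353386, plus strand: ctggaaatGAAACAGAAAccacaact
Trim34a, chr7:104244459-104244484, minus strand: agagaaaaGAAACTGAAActccaaac
Trim21, chr7:102565446-102565477, minus strand: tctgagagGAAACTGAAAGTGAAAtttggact
Bst2, chr8:71537579-71537610, minus strand: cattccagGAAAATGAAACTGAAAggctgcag
Ifih1, chr2:62646206-62646231, minus strand: agagaatcGAAACAGAAAccgatctg
Eif2ak2, chr17:78882537-78882562, minus strand: tccgccggGAAAACGAAAcagaagag

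Members with and without the ISRE letters are set side by side as a description. The median log2 fold change was -0.43 over 13 tested members with a match, from -2.18 for Rsad2 to -0.13 for Trim21. It was -0.46 over 17 tested members with a window and no match, from -1.94 for Ifi44 to 0.29 for Phf11d. Oas1a, Trim21 and Bst2 hold 2 overlapping matches each, and of these only Bst2 was called lower. Cmpk2, Oasl1 and Oasl2, with no match in their windows, were called lower.

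Upstream of these genes, the receptors and STAT and IRF factors were lower in part. Of the 8 tested receptor and kinase genes on the list used here, 6 were lower and 0 higher, beside 10.1% and 7.23% of all tested genes. The interferon-γ receptor gene Ifngr1 changed most, at -0.60. Both chains of the type I interferon receptor fell by less, Ifnar1 from 153 ± 1.65 to 132 ± 1.58 CPM and Ifnar2 from 87.6 ± 1.82 to 78.3 ± 0.990 CPM (n = 3 per group, SD; log2 fold changes -0.21 and -0.16, edgeR adjusted p = 1.88e-05 and 0.00363). Jak2 changed by -0.14, while Jak1 and Tyk2, the kinases of the type I receptor, did not pass, at 0.052 ± 0.022 and -0.0099 ± 0.041 (SE; edgeR adjusted p = 0.108 and 0.911). Under total-count scaling Jak1 was called higher, at 0.062 (edgeR adjusted p = 0.0492). The Ifngr2 call, at -0.35 and an edgeR adjusted p of 0.0294, was lost without WT replicate 1, WT replicate 2, KO replicate 1 or KO replicate 3; in that order (edgeR adjusted p = 0.146, 0.0705, 0.0781 and 0.0587).

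Genes of the ISRE-binding complex were lower: Stat2, from 70.3 ± 1.12 to 58.6 ± 0.484 CPM, and Irf9, from 67.5 ± 0.632 to 53.8 ± 2.58 (n = 3 per group, SD). Their log2 fold changes were -0.26 and -0.33 (edgeR adjusted p = 4.28e-05 and 7.93e-06). Irf1 and Irf7 changed by -0.39 and -0.53, whereas Irf3 and Irf8 did not pass, at 0.058 and 0.044. Irf2, at -0.13, stood at the threshold (edgeR adjusted p = 0.05003) and passed under 6 of the alternatives. These were limma-voom (adjusted p = 0.0466) and, in edgeR, no count filter, the 1 CPM filter, the robust fit and leaving out WT replicate 3 or KO replicate 2 (adjusted p = 0.0273, 0.0459, 0.0302, 0.0499 and 0.00554). Of interferon genes themselves, Ifng was higher, with a WT level of 69.8 ± 1.11 CPM and a KO level of 83.2 ± 2.58 (SD, n = 3 in both; log2 fold change 0.25, edgeR adjusted p = 5.55e-05). Ifna1, Ifna2 and Ifna4 had 0 to 3 counts per WT-labelled library and 0 in each KO-labelled one, too few to be tested.

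Brakes on the pathway that interferon itself induces were lower (edgeR adjusted p at most 2.27e-05). Usp18, which removes ISG15 and blocks the type I receptor, changed by -1.22 ± 0.085 (SE), Socs3 by -0.48 and Socs1 by -0.39. Isg15 itself, placed on the same list, changed by -1.19 (edgeR adjusted p = 5.48e-07). Of the list of brakes, 4 of 7 were lower and 1 higher, beside 10.1% and 7.23% of all tested genes. The higher one was the phosphatase gene Ptpn6, at 0.22, and Ptpn2 and Pias1 did not pass. Downstream of the sensors, most adaptors and kinases did not pass. Of 21 tested, 4 were lower and 0 higher by edgeR, beside 10.1% and 7.23% of all tested genes, and DESeq2 made the same calls. At an unadjusted p under 0.05, edgeR had 6 lower and 4 higher, beside the 15.2% and 13.2% of all tested genes. Among the lower genes were Unc93b1, which carries nucleic acid-sensing Toll-like receptors to endosomes, at -0.49, the necroptosis executor gene Mlkl at -0.14 and the DNA-sensing adaptor gene Sting1 at -0.13. Mavs, the adaptor of the RNA helicases, went from 41.2 ± 0.591 to 45.2 ± 4.48 CPM (n = 3 per group, SD; log2 fold change 0.13, edgeR adjusted p = 0.132), and the kinase gene Tbk1 from 84.9 ± 1.12 to 82.9 ± 3.41 (-0.035, edgeR adjusted p = 0.613). Without KO replicate 2 the Mavs change was 0.21 and passed (edgeR adjusted p = 0.0102). Without WT replicate 3 the Sting1 call was lost (edgeR adjusted p = 0.0561), as was the Mlkl call without WT replicate 1 or 2 (edgeR adjusted p = 0.0566 and 0.0589).

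**Figure D4:**
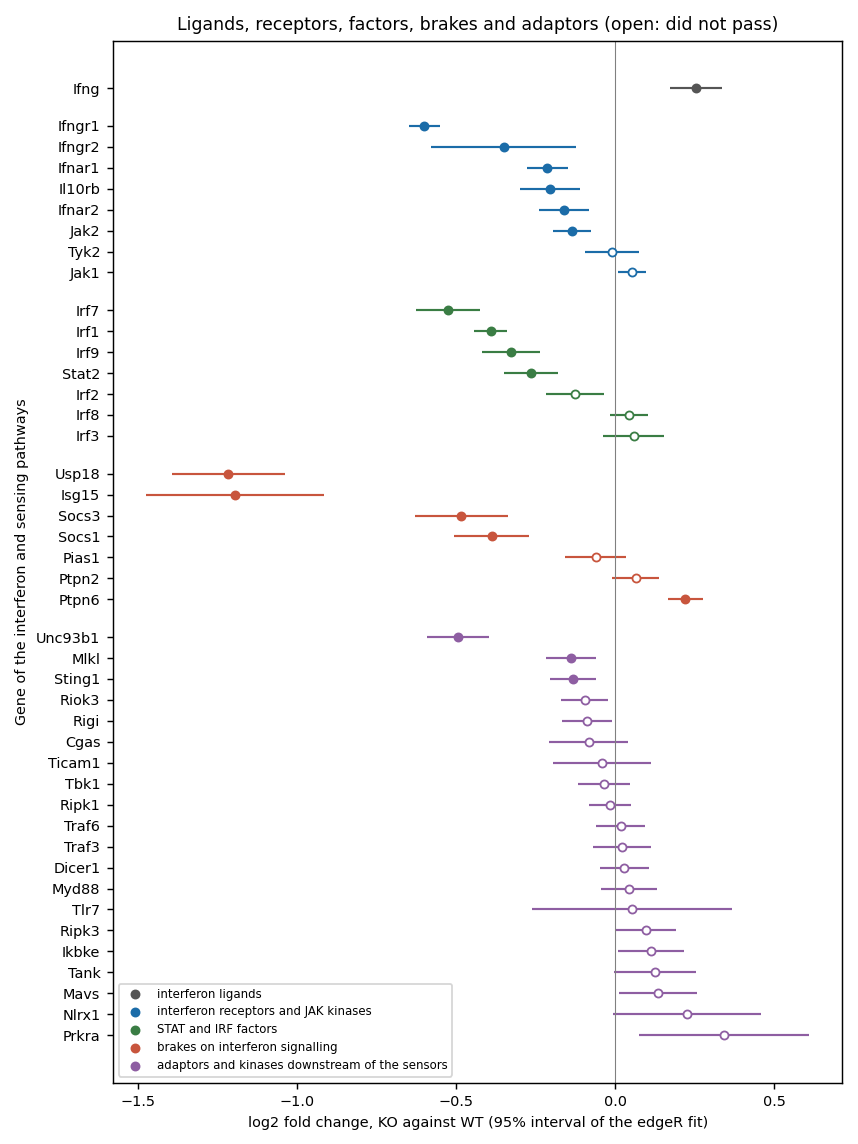
Points are log2 fold changes of KO against WT, with 95% intervals of the edgeR fit. The lists are ligands, receptors and kinases, STAT and IRF factors, brakes, and adaptors downstream of the sensors. Open points did not pass, and not every gene of the lists is drawn. Usp18 and Isg15 stand apart at -1.22 and -1.19, and most adaptors lie near 0.

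Genes that share a family name with the members but are not among them changed in both directions. Of 50 tested relatives, 10 were lower and 5 higher, with a median log2 fold change of -0.064, beside 10.1% lower and 7.23% higher of all tested genes. Those with the largest changes, chosen after their values were seen, were Trim30c at -1.75, Phf11a at -1.37 and Trim66 at 0.97. Trim30c lies next to Trim30a and Phf11a next to Phf11b, and Trim5, next to Trim34a, changed by -0.48. The higher relatives also held Trim28, a co-repressor gene, at 0.12 and Parp1, the DNA damage-responsive polymerase gene, at 0.15. Among 9 tested Parp relatives, 2 were lower and 1 higher, while all 3 Parp members were lower.

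**Figure D5:**
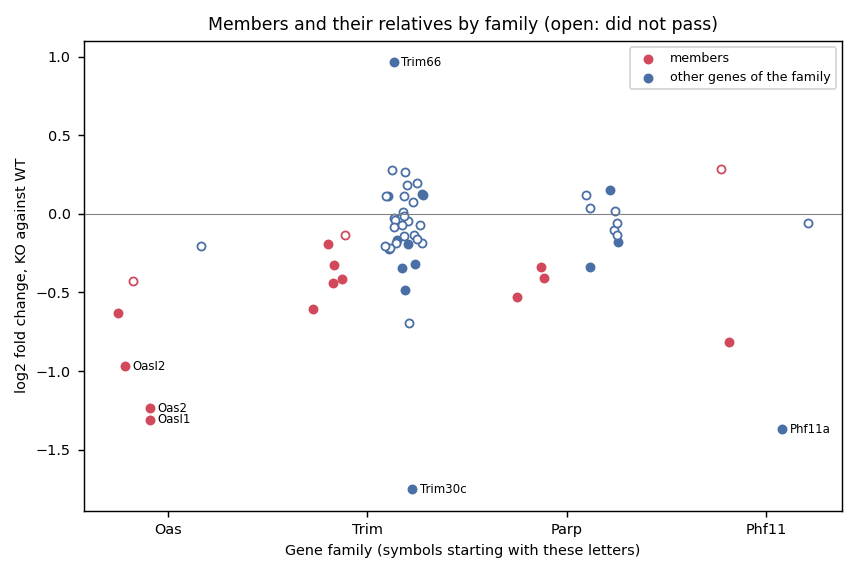
Each point is a tested gene of the Oas, Trim, Parp or Phf11 family, with members in red and the other genes of the family in blue; the y axis is the log2 fold change of KO against WT and open points did not pass. The members lie below 0 except Phf11d, and the blue points of the Trim and Parp families scatter around 0 with Trim30c at -1.75 and Trim66 at 0.97.

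Markers of other spleen cells were low in these libraries. Over 40 markers of B cells, monocytes and macrophages, dendritic cells, neutrophils, erythroid cells and platelets that had a row, 36 were under 1 CPM on average and none was at 0 in every library. Their sum was 759 to 804 CPM in WT and 779 to 872 in KO, of which Ccr2, a chemokine receptor gene listed for monocytes, made up 750 ± 23.8 CPM in WT (SD, n = 3). Without Ccr2, left out after its value was seen, the other 39 summed to 27.7 to 30.4 CPM in WT and 25.1 to 26.5 in KO, so this sum was lower in KO without overlap, as the members were. Tcf4, Cd68 and Cd79b make up most of it, at 10.5, 8.35 and 5.65 CPM in WT, and of these Cd68 was called lower, at -0.43 (edgeR adjusted p = 0.0179). The erythroid and platelet markers summed to 0.92 to 1.01 CPM in WT and 1.28 to 1.73 in KO, higher without overlap, and the conventional dendritic markers to 0.891 to 1.49 and 1.48 to 1.91, with overlap. Of the listed myeloid genes, Csf1r, Lyz2 and S100a8 stood at 0.047, 0.134 and 0.028 CPM in WT and at 0, 0.048 and 0 in KO. The WT value of Lyz2 comes from WT replicate 2 alone, with 14 counts. The plasmacytoid marker list, which also names Bst2, summed to 10.1 to 11.4 CPM in WT and 8.93 to 10.6 in KO without it. The NK cell markers summed to 2723 to 2798 CPM in WT and 3107 to 3266 in KO, mostly from Gzma and Eomes, which were called higher (log2 fold changes 0.14 and 0.70). On the same list Ncr1 was called lower (-0.93, edgeR adjusted p = 0.0398) and Klrb1c did not pass (0.049). Cd8a, Cd8b1 and Cd4 summed to 84.2 to 84.9 CPM in WT and 103 to 107 in KO. Of these Cd8a was called higher (0.40), and Cd8b1 and Cd4 did not pass (-0.021 and -0.17). The part of any of these in the members' fall was not tested. With the markers of other cells and genes over 1% of a library removed before scaling, 33 members were again called lower and 0 higher. That removal leaves the members' own counts as they were, so it is no test of what other cells contribute to them.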

How the data were processed

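RNA of sorted splenic γδ T cells was sequenced in 3 WT-labelled and 3 KO-labelled libraries. Per the submitters' processing notes, fastp, HISAT2 and HTSeq were used with GRCm39. The sources used here give no versions, annotation or strand setting. The authors deposited raw read counts per gene symbol, and deposited FPKM values, which are those counts divided by gene length and library size: the gene length they imply was constant within 0.01 bp in 17510 of 17510 genes checked.

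Differences in counts were tested by the quasi-likelihood method of edgeR 4.0.16 under R 4.3.3 (filterByExpr, TMM factors, Benjamini-Hochberg adjustment over 12810 genes, threshold 0.05, no covariate). The filter removed 0.0366% of counts. DESeq2 1.42.0, limma 3.58.1, other scalings, filters and thresholds, a replicate block and leaving out each library were alternatives. The main tests were first run on simulated data. CPM are TMM-scaled.

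The members and lists were chosen with earlier results of these data known. Values per library are given for all OAS genes, for the 3 members with the smallest p in each other role, and for members that did not pass. Rsad2, Cmpk2, Ifi44 and Ddx60 are given as well, outside these rules. Where nothing says that libraries came from separate mice, p-values measure only the spread between these libraries. Promoter windows and transcripts come from GRCm38 tables, with no conversion of coordinates. Protein identities were planned and were not computed. Some genes of the lists count in their totals and are not reported here by name.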

Additional observations from a re-analysis of the deposited data

How the results depend on the processing

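The count of 33 members called lower was the same under relative-log-expression, upper-quartile and total-count scaling, DESeq2, limma-voom, no count filter, a stricter filter and a robust fit. No alternative called a member higher. Tested against a fold of 1.2, the counts were 447 genes changed, 300 lower and 147 higher, 18 members lower, 8 pathway genes lower and 0 higher, and 2 family relatives lower and 1 higher. At an adjusted p under 0.01, 1383 genes were called changed, 520 of them higher, with 31 members lower and 3 relatives higher. On log2(FPKM + 0.1) and on log2(FPKM + 1), limma called 3 relatives higher, each with 27 of 30 tested members lower. The members' median was -0.40 on the former and -0.38 on the latter. Only genes with a mean of at least 1 FPKM were kept there. Rsad2, Ifi44, Oasl1, Oas2, Ddx60 and Phf11d were therefore left out, and these medians are over fewer members than the main one. Leaving out each library in turn gave 1660 to 2256 genes changed, 994 to 1330 lower and 666 to 1000 higher, 30 to 34 members lower, 17 to 20 pathway genes lower and 2 to 3 higher, 7 to 9 relatives lower and 4 to 6 higher, a members' median from -0.46 to -0.41, and a Usf3 change from -0.11 to -0.049.

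Changes of sign occurred in 5 pathway genes that passed under none of these settings, and the cause was not tested. Over the fits that each leave out a library, Tyk2 ranged from -0.037 to 0.024, Traf3 from -0.00036 to 0.049, Traf6 from -0.0096 to 0.042, Ripk1 from -0.027 to 0.0073 and Tlr7 from -0.042 to 0.19. Tyk2 was also at 0.00077 under upper-quartile scaling.

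The labels do not say whether replicate numbers pair the libraries. Deviations of same-numbered libraries correlated at 0.048, -0.044 and -0.072, and those of differently numbered ones from -0.056 to 0.103. With 3 libraries per group these values cannot show whether the libraries were paired. With the replicate block, 33 members were lower, 1969 genes were called changed, and the Ifngr2 call was lost (edgeR adjusted p = 0.0507). Phf11d and Oas1g had at most 11 counts in any library.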
